A study of Mus musculus with 43 samples.

Results

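Small RNAs of cauda epididymal fluid were compared between mice in which Rnase9 to Rnase12 are all deleted (Rnase9-12 KO) and wild-type (WT) mice. The comparison took the libraries titled as cauda fluid, 3 KO and 3 WT, which are 6 of the 43 libraries of the series, and all RNA classes counted in them. All mice were FVB and 8 to 12 weeks old. The KO line carries a CRISPR-Cas9 deletion of the genomic segment that holds the 4 genes, so all 4 are lost together, and each library pooled RNA of 3 mice of 1 genotype. The fluid was the supernatant left after sperm, cell debris and extracellular vesicles had been spun down, and its RNA was treated with polynucleotide kinase (PNK), which removes 3′ phosphates, and sequenced by OTTR-seq, in which a reverse transcriptase adds the adapters by jumping between templates. The comparison asks whether loss of the 4 proteins changes which RNA fragments lie free in the fluid that surrounds mature sperm.

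The cauda is the last segment of the epididymis, where sperm are stored. RNases 9-12 belong to the ribonuclease A family but lack residues needed for catalysis, and they are made mainly in the epididymis. A tRNA fragment (tRF) is a piece of a mature tRNA: a tRF_5 keeps the 5′ end, a tRF_3 the 3′ end, and a tRF_other neither. Fragments of rRNA are called rsRNAs. In a bulk fluid sample, release by fewer cells and less RNA from each cell cannot be told apart.

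The 6 libraries held 6533330 to 12320922 counts, and 2023 of 3178 listed RNAs had enough counts to be tested. Levels are given as counts per 1000000 of the library size scaled by TMM (CPM), and differences as log2 fold changes of KO over WT. The TMM factors ranged from 0.663 (WT replicate 3) to 1.29 (KO replicate 1). Overlap between genotypes was judged on the scaled levels, so narrow gaps depend on the scaling. No feature counts the 4 deleted genes, so the genotype could not be checked in the counts, and no list of markers defines cell-free fluid. Neither the KO nor the WT libraries form a group of their own. Over all RNAs tested, the log2 CPM of KO replicate 3 correlated at r = 0.957 to 0.979 with the WT libraries but at 0.947 and 0.950 with the other KO libraries, which correlated with each other at 0.972. WT replicate 2 likewise correlated at 0.979 with KO replicate 3 and 0.967 with KO replicate 1, but at 0.961 with WT replicate 1 and 0.971 with WT replicate 3. These correlations are across RNAs, which are not independent, and they describe the libraries only. Results are also given without KO replicate 3, which was picked because it resembled WT in these same data. Leaving it out therefore favours larger differences, and p-values without it are no separate support. Reads that map equally well to several features are counted on each, and 432 of the listed RNAs have exactly the counts of another, so members of a family are not independent measurements.

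By edgeR's quasi-likelihood test, 0 of 2023 RNAs (0%) were called, a call needing an adjusted p below 0.05 together with a change of more than 1 on the log2 scale, and the smallest adjusted p was 0.0992. At an unadjusted p under 0.05, edgeR counted 57 RNAs lower (2.82%) and 131 higher (6.48%). DESeq2, run on the same counts, called 10 lower (0.725% of the 1379 RNAs it gave an adjusted p) and 32 higher (2.32%). The genotypes did not overlap for some RNAs, with KO below WT for 79 (3.91%) and above for 122 (6.03%). Positive log2 fold changes were found for 54.1% of all RNAs, with a median of 0.09. The counts of calls turned on single libraries: edgeR called 19 RNAs lower and 20 higher without KO replicate 3, 1 lower and 35 higher without WT replicate 2, and none without any of the other libraries. These p-values measure the spread between pooled libraries.

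Fragments of tRNA made up most of the fluid in both genotypes. The tRF_3 share was 39.4%, 39.9% and 46.5% of counts in WT and 32.0%, 38.4% and 44.2% in KO. The tRF_5 share was 34.5%, 39.2% and 38.4% in WT and 38.2%, 36.7% and 40.8% in KO. For both classes the genotypes overlapped. All tRFs together held 82.7% ± 4.64 of counts in WT and 80.8% ± 6.28 in KO (SD, n = 3 each; 2-sided exact permutation p = 0.8). The rsRNAs held 10.4% ± 2.07 and 11.2% ± 3.61, and microRNAs 0.522% ± 0.173 and 0.796% ± 0.234. None of the classes separated the genotypes, all adjusted p were 1, and 3 libraries against 3 cannot give an exact p below 0.1.

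**Figure D1:**
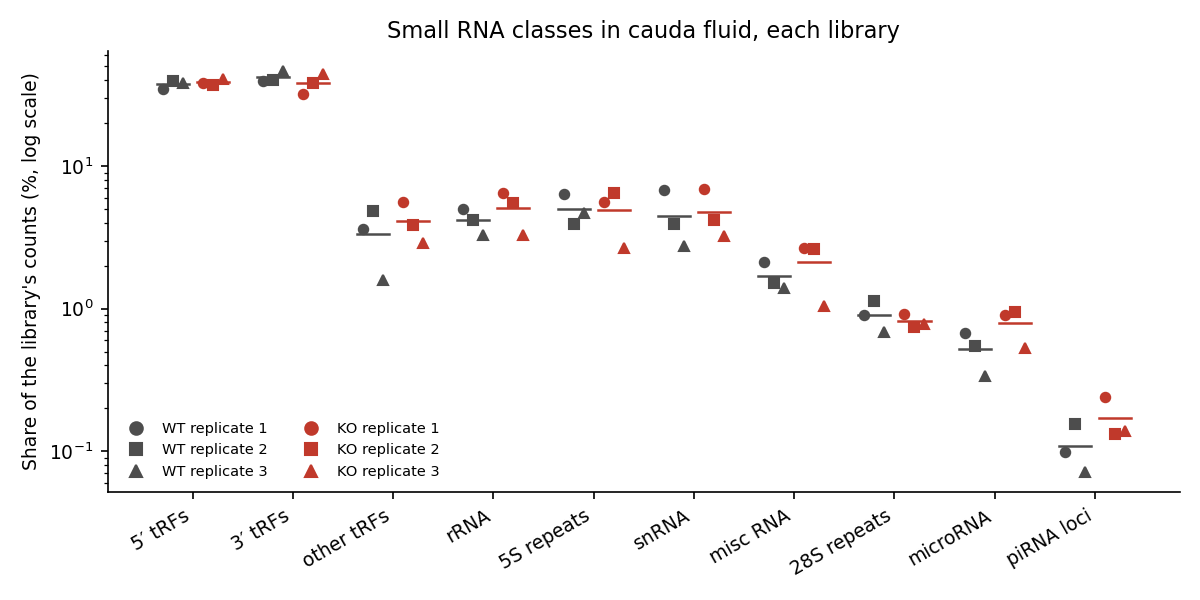
Share of all counts (percent, log axis) held by each RNA class in the 3 WT and 3 KO cauda fluid libraries, with 1 point a library and bars at the group mean. The tRF_3 and tRF_5 classes hold most counts in every library, and the WT and KO points overlap in each class shown.

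Within the classes, RNAs leaned in different directions. The tRF_3 class leaned lower, with 163 of 180 tested having a negative log2 fold change and a median of -0.50, while tRF_5 were centred near 0 (95 of 183 negative, median -0.02, and -0.38 to 0.27 when libraries were left out in turn) and tRF_other leaned higher (57 of 198 negative, median 0.39). The miscellaneous small RNAs, which hold Y RNAs, 7SK and 7SL RNA and their genomic copies, had a median of 0.80, with 89 of 102 positive. Loci that give rise to piRNAs had a median of 0.39 (300 of 352 positive), microRNAs 0.12, snoRNAs 0.02 and spliceosomal snRNAs -0.18. The tRF_3 median was -0.87 without KO replicate 3 but -0.04 without WT replicate 3 and -0.20 without KO replicate 1 or 2. The median of the miscellaneous RNAs stayed between 0.46 and 1.76 whichever library was left out. Scaling by library size alone moved the median of all RNAs to 0.34, that of tRF_3 to -0.21 and that of tRF_other to 0.61, so the order of the 3 tRF classes was the same.

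**Figure D2:**
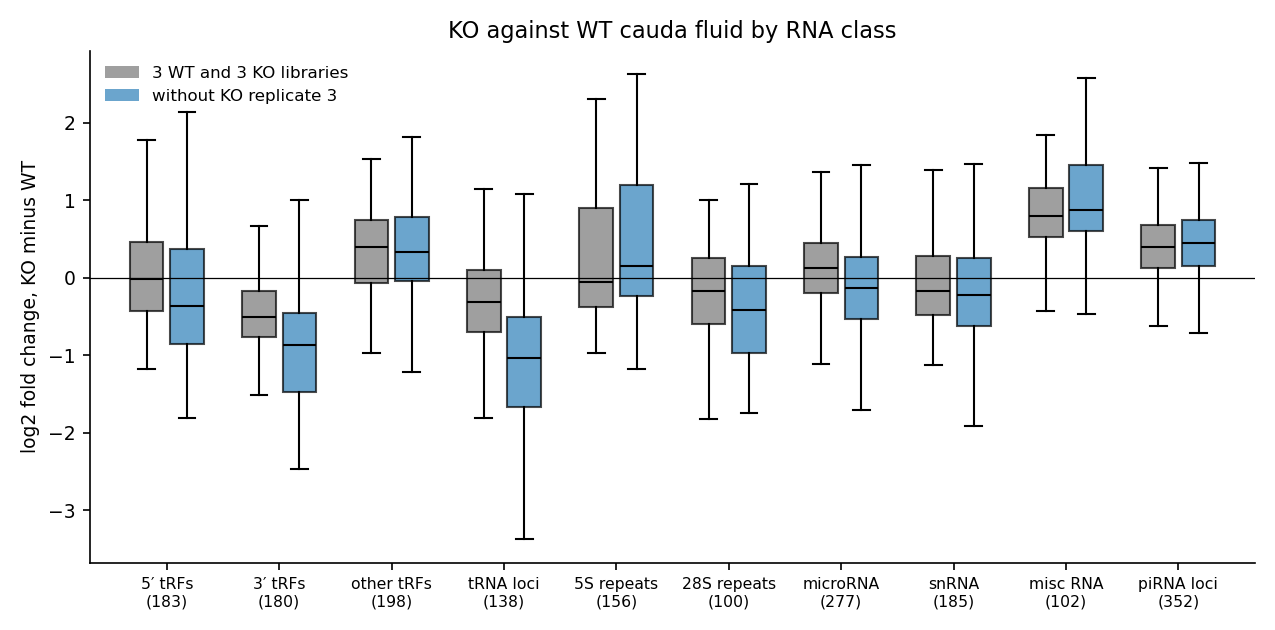
Log2 fold changes (KO over WT, cauda fluid) of the tested RNAs in each class, with the number tested in parentheses, from all 3 WT and 3 KO libraries (grey) and without KO replicate 3 (blue); boxes span the quartiles around the median, whiskers reach the last value within 1.5 box lengths, and points beyond them are not drawn. The tRF_3 (3′ tRF) box lies below 0 (median -0.50, and -0.87 without KO replicate 3), and that of the miscellaneous RNAs above it (median 0.80).

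Fragments of the 3′ end of arginine tRNAs leaned lower. Of 18 tested, 17 had a negative log2 fold change, the median was -0.87, 11 were lower at an unadjusted p under 0.05 (beside 2.82% of all RNAs), and 8 had all KO libraries under all WT libraries (beside 3.91%). DESeq2 called 4 of them lower (beside 0.725%). The median was lower for the tRF_3 of tyrosine tRNAs (-0.92, 5 of 5 negative), for which the genotypes overlapped. The tRF_3 of tRNA-Arg-TCG-1 stood at 1071, 598.5 and 741.6 CPM in WT and 318, 235 and 336 CPM in KO. All 3 KO libraries were below the lowest WT library, KO replicate 3 among them. Its log2 fold change was -1.44 ± 0.37 (SE), with an adjusted p of 0.173 in edgeR and 0.0105 in DESeq2.

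The tRF_3 of tRNA-Arg-CCG-1 had the same order of libraries, with 1328, 748 and 1150 CPM in WT and 351, 388 and 567 in KO and a log2 fold change of -1.30 ± 0.36 (adjusted p 0.173 in edgeR, 0.0178 in DESeq2). The tRF_3 of tRNA-Met-CAT-4, from an elongator methionine tRNA, stood at 8.37, 17.6 and 20.1 CPM in WT and 2.88, 6.45 and 2.996 CPM in KO, again without overlap, and its log2 fold change was -1.90 ± 0.51. Other isotypes also leaned lower. All 17 tested tRF_3 of cysteine tRNAs and all 13 of threonine tRNAs were negative, with medians of -0.64 and -0.29. KO levels were all under WT levels for 0 and 3 of them (beside 3.91% of all RNAs). Isodecoders, which are tRNAs with the same anticodon and small differences elsewhere, share reads, so these counts are not of independent RNAs.

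Fragments of the 5′ end of alanine tRNAs leaned higher. Of 23 tested, 20 were positive, the median was 1.10 (1.30 without KO replicate 3), 17 were higher at an unadjusted p under 0.05 (beside 6.48% of all RNAs) and DESeq2 called 9 of them higher (beside 2.32%). The tRF_5 of tRNA-Ala-AGC-8 stood at 75.1, 128 and 65.8 CPM in WT and 341, 303 and 97.7 CPM in KO. KO replicates 1 and 2 lay above all WT libraries, and KO replicate 3 lay inside the WT range. The log2 fold change was 1.46 ± 0.43 with all libraries (adjusted p 0.173 in edgeR, 0.0261 in DESeq2) and 1.72 without KO replicate 3 (adjusted p 0.0335 in edgeR).

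The tRF_5 of tRNA-Ala-CGC-2 gave 75.1, 138 and 68.9 CPM in WT and 345, 300.2 and 113 CPM in KO (log2 fold change 1.43 ± 0.42). Summed over its isodecoders, the alanine AGC anticodon had tRF_5 levels of 1072, 2036 and 2010 CPM in WT and 5523, 4214 and 2602 CPM in KO, without overlap, with a log2 fold change of 1.27 ± 0.33 and an adjusted p of 0.133 in edgeR. The tRF_5 of tRNA-Cys-GCA-11 had 8.55, 19.2 and 14.5 CPM in WT and 74.2, 54.2 and 14.5 CPM in KO, so that its difference (1.76 ± 0.50) lay in KO replicates 1 and 2. The tRF_5 of tryptophan (5 of 5 positive, median 0.78), elongator methionine (5 of 5, 0.66) and threonine tRNAs (7 of 8, 0.41) also leaned higher. All 16 tRF_5 of leucine tRNAs (median -0.60), all 12 of serine tRNAs (-0.39) and all 11 of valine tRNAs (-0.44) were negative. For 5 of the leucine fragments the KO levels were all under the WT levels (beside 3.91% of all RNAs).

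The sums of the most abundant fragments were not called. The tRF_5 of tRNA-Gly-GCC, the most counted anticodon, summed to 190303 ± 55220 CPM in WT and 156626 ± 40044 CPM in KO (SD, n = 3 each), a log2 fold change of -0.28 ± 0.30 (adjusted p 0.786 in edgeR). The tRF_5 sums of Val-CAC (-0.28), Val-AAC (-0.30), Glu-CTC (-0.14), Glu-TTC (-0.08) and Gln-TTG (-0.03) lay within their standard errors of 0. The tRF_5 of Gly-CCC went the other way, at 17989 ± 6578 CPM in WT and 31400 ± 18007 CPM in KO (0.80 ± 0.36, adjusted p 0.399 in edgeR), and KO replicate 2 alone exceeded all WT libraries. Among tRF_3, the sums of Leu-CAA (-0.38 ± 0.38) and His-GTG (-0.02 ± 0.37) overlapped between genotypes, and that of Glu-TTC had a log2 fold change of -0.90 ± 0.41, with KO replicate 3 inside the WT range.

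None of the 149 sums by anticodon and fragment type was called by edgeR or by DESeq2. EdgeR's unadjusted p was below 0.05 for 7 sums of negative and 14 of positive log2 fold change (beside 2.82% and 6.48% of all RNAs tested singly). Of the sums, 39 of 49 for tRF_3 were negative and 44 of 51 for tRF_other were positive. The tRF_other of alanine (15 of 15, median 0.85), serine (12 of 12, 0.67) and cysteine tRNAs (21 of 22, 0.80) were nearly all positive, and those of lysine tRNAs mostly negative (14 of 16, -0.69). Without KO replicate 3, 5 sums were called higher by edgeR, and without WT replicate 2, 3 were.

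**Figure D3:**
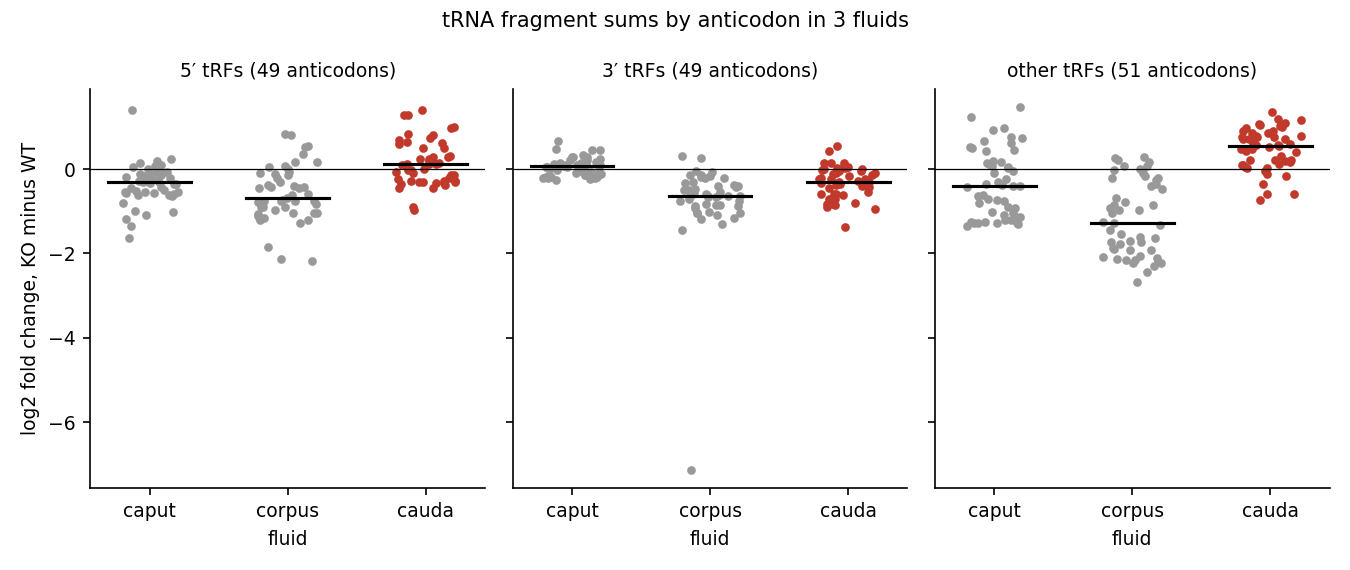
Log2 fold change (KO over WT) of tRNA fragments summed by anticodon, for tRF_5 (5′), tRF_3 (3′) and the other tRFs, in caput, corpus and cauda fluid as titled, with 1 point an anticodon and bars at the median. In cauda fluid (red) the medians were 0.11, -0.30 and 0.55, and in corpus fluid all were negative, at -0.68, -0.63 and -1.27.

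Reads that fall on tRNA genes rather than on mature tRNAs were rare, at 0.0271% to 0.0667% of counts. The locus of tRNA-Glu-CTC-1-6 had 13.6, 11.4 and 15.6 CPM in WT and 3.37, 2.06 and 6.66 CPM in KO, without overlap, with a log2 fold change of -1.76 ± 0.47 (adjusted p 0.173 in edgeR, 0.0105 in DESeq2). The locus of tRNA-Phe-GAA-1-1 had no counts in any WT library and 22, 20 and 2 in KO. Against a floor of 3 counts in each WT library (mean 0.35 CPM), the KO mean of 1.49 CPM was at least 4.25-fold higher. KO replicate 3, at 0.333 CPM, lay under that floor, so the ratio rests on KO replicates 1 and 2 (1.55 and 2.58 CPM). Both elongator methionine loci tRNA-Met-CAT-1-2 (1.70 ± 0.48) and tRNA-Met-CAT-1-1 (1.38 ± 0.41) were above all WT libraries in every KO library and called higher by DESeq2. Full-length tRNAs held 0.00161% to 0.0331% of counts, and the genotypes overlapped for all 24 tested.

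Among the rsRNAs, none of the reference sequences of the ribosomal RNAs was called by edgeR. The 18S rRNA stood at 7175, 5227 and 5952 CPM in WT and 3740, 5176 and 4731 CPM in KO, without overlap, with a log2 fold change of -0.43 ± 0.29 (adjusted p 0.648 in edgeR). The 5.8S rRNA was also without overlap, at 169, 142.7 and 145.4 CPM in WT and 86.3, 97.4 and 114 CPM in KO (-0.62 ± 0.37). Both separations depended on the TMM scaling, since over the library totals alone both RNAs overlapped. The 5.8S rRNA had 855 of 8878655 counts in WT replicate 3 and 1229 of 11018838 in KO replicate 1. The 18S rRNA had 35012 and 53231 counts in these libraries. The 5S rRNA (-0.42) and both 28S sequences (0.05 and 0.03) overlapped, as did the mitochondrial large (0.10) and small subunit rRNAs (0.80). The sign for 28S turned under the size factors of DESeq2 and under TMM factors taken from other RNAs.

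Single rRNA repeat copies in the genome, which are counted apart, gave larger values. The copy rmsk_18S_213 had 82.96, 29.4 and 40.1 CPM in WT and 10.7, 5.16 and 23.3 CPM in KO (-1.97 ± 0.50), and rmsk_28S_780 had 3157, 1292 and 1895 CPM in WT and 1039, 455 and 974 CPM in KO (-1.36 ± 0.39). Neither overlapped between genotypes in CPM, and DESeq2 called both lower (adjusted p 0.0105 and 0.0283). Over the library totals alone, rmsk_28S_780 overlapped, with 11149 of 8878655 counts in WT replicate 3 and 14795 of 11018838 in KO replicate 1. The copies of the opposite sign, rmsk_5S_857 (3.03 ± 0.82) and rmsk_18S_1047 (2.53 ± 0.66), were high in KO replicates 1 and 2 and inside the WT range in KO replicate 3. The median was 0.45 over 23 copies of 18S, of which 16 were positive, -0.05 over 156 of 5S and -0.18 over 100 of 28S. Of the 156 copies of 5S, 20 were higher at an unadjusted p under 0.05 in edgeR (beside 6.48% of all RNAs). For 3 of the 156 the KO levels were all over the WT levels (beside 6.03%), and for 2 all under (beside 3.91%).

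Y RNAs are short noncoding RNAs transcribed by RNA polymerase III and bound by the Ro protein, and their fragments are common outside cells. Rny3 stood at 114, 658 and 315 CPM in WT and 1873, 3718 and 458 CPM in KO. KO replicates 1 and 2 were above all WT libraries and KO replicate 3 lay between WT replicates 3 and 2. The log2 fold change was 2.48 ± 0.72 (adjusted p 0.173 in edgeR, 0.0221 in DESeq2), and 2.76 without KO replicate 3 (adjusted p 0.0335 in edgeR). With each library left out in turn, it ranged from 1.72 without KO replicate 2 to 3.25 without WT replicate 2. Rny1, which lies in the same cluster on chromosome 6, was more abundant and differed less, with 5220, 3561 and 5353 CPM in WT, 6746, 9468 and 4434 CPM in KO and a log2 fold change of 0.55 ± 0.39. Levels of the 2 RNAs are per library and not per length.

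The Y RNAs were then described together with their genomic copies. Copies were grouped by sequence, at 70% identity or more over at least 60% of the copy, after their values had been seen, so the group gets no test. All 12 RNAs nearest to Rny1 or Rny3 were positive, with a median of 1.60 and a range of 0.31 to 4.26. In edgeR, 5 had an unadjusted p under 0.05 (beside 6.48% of all RNAs on the higher side). For 1 of the 12 the KO levels were all over the WT levels (beside 6.03% of all RNAs). The median was 1.86 without KO replicate 3, 0.92 without KO replicate 2 and 2.69 without WT replicate 2. The copy Gm22199, 74.4% identical to Rny1 over the aligned part and named after its values were seen, had 0.828, 7.66 and 1.70 CPM in WT and 45.9, 150.1 and 0.999 CPM in KO. Gm24372, 86.7% identical to Rny1, had 2.48, 27.3 and 5.27 CPM in WT and 194, 482 and 2.33 CPM in KO. Both were high in KO replicates 1 and 2 and inside or below the WT range in KO replicate 3. The transcripts are shown so that Rny3, Rny1 and the copy can be read against each other, with both of the longest runs of bases shared by all 3 (8 bases each) in capitals; they are from the GENCODE set on GRCm38, 5′ to 3′, at chr6:47781624-47781725 (plus strand), chr6:47788069-47788180 (minus) and chr13:51014086-51014211 (plus).
Rny3: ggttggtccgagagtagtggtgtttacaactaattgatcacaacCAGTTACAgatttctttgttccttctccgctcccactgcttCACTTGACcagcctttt
Rny1: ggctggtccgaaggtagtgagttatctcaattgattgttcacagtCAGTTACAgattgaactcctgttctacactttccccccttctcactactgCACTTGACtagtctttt
Gm22199: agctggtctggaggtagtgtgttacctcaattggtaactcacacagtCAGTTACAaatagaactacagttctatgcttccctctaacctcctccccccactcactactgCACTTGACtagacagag

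The 7SK RNA, which holds back the elongation factor P-TEFb in the nucleus, and the 7SL RNA, the scaffold of the signal recognition particle, had opposite signs. Rn7sk stood at 75.9, 243 and 83.3 CPM in WT and 255, 240.0 and 257 CPM in KO (0.90 ± 0.42, adjusted p 0.514 in edgeR). KO levels lay close together, and WT replicate 2 was at the KO level. Of 49 RNAs related in sequence to 7SK, 48 were positive, with a median of 0.85, and 8 had all KO libraries over all WT libraries (beside 6.03% of all RNAs). Their median was 0.96 without KO replicate 3, 1.85 without WT replicate 2 and 0.58 without KO replicate 1. The copy Gm25780, 78.5% identical to 7SK over the aligned part, had 3.50, 12.5 and 4.93 CPM in WT and 25.2, 26.3 and 40.8 CPM in KO, without overlap and with its highest level in KO replicate 3. Its log2 fold change was 2.13 ± 0.52 (adjusted p 0.173 in edgeR, 0.00452 in DESeq2). The copy is shown because it had the smallest p of its family, with the longest run of bases shared with Rn7sk (28 bases) in capitals, from GENCODE on GRCm38, 5′ to 3′, at chr6:140530963-140531215 on the plus strand.
Gm25780: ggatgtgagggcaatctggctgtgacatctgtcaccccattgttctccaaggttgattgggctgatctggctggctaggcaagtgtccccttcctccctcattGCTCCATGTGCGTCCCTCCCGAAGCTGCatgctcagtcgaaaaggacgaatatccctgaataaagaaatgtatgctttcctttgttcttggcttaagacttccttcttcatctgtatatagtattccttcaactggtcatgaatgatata

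Rn7s1 and Rn7s2, the 7SL genes, share nearly all their reads and had a log2 fold change of -0.55 ± 0.38. Rn7s1 levels were 5902, 2316 and 4948 CPM in WT and 3502, 4070 and 1415 CPM in KO. Of 11 RNAs related to 7SL, 10 were negative, with a median of -0.55, and the KO levels of 5 were all under their WT levels (beside 3.91% of all RNAs). Rn7s6 was 1 of them, at 517, 475 and 477 CPM in WT and 421, 349.9 and 363 CPM in KO (-0.37 ± 0.31, adjusted p 0.715 in edgeR). The copy Gm26461, 89.3% identical to 7SL over the aligned part, had 4323, 1644 and 3455 CPM in WT and 1581, 1476 and 1000.2 CPM in KO (-1.22 ± 0.35, adjusted p 0.0261 in DESeq2). All KO libraries lay below all WT libraries in CPM. Over the library totals alone, Rn7s6 and Gm26461 both overlapped between genotypes. KO replicate 1 had 5994 and 22496 of 11018838 counts on them, and WT replicate 2 had 5396 and 18673 of 10206828.

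**Figure D4:**
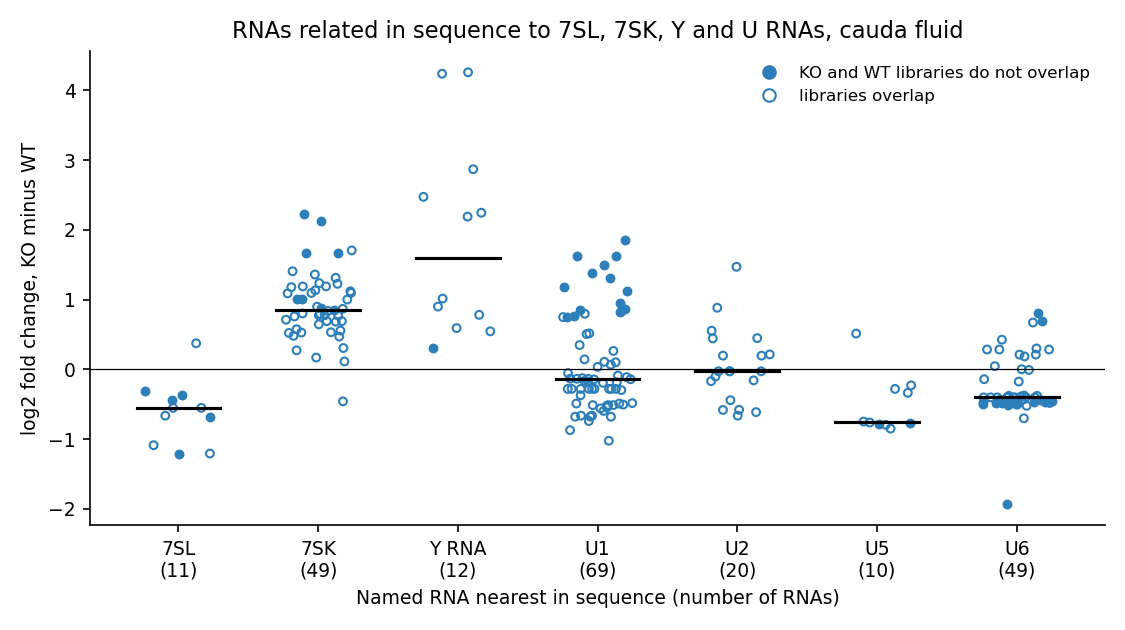
Log2 fold change (KO over WT, cauda fluid) of each RNA related in sequence to 7SL, 7SK, Y, U1, U2, U5 or U6 RNA, grouped by its nearest relative, with bars at the medians and filled points where the KO and WT libraries did not overlap. All Y-related points and 48 of 49 7SK-related points lie above 0, while 10 of 11 7SL-related and 9 of 10 U5-related points lie below.

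Other RNA polymerase III products were not called by edgeR, and the genotypes overlapped for the 3 given next. The RNase P RNA Rpph1 had a log2 fold change of -0.61 ± 0.41, the RNase MRP RNA Rmrp of -0.43 ± 0.40 and the vault RNA Vaultrc5 of 0.58 ± 0.37. All 9 named U RNAs were negative, with a median of -0.66, and 1 had an unadjusted p under 0.05 (beside 2.82% of all RNAs on the lower side). Genomic copies of U1, the snRNA that reads 5′ splice sites, were mixed: 43 of 69 were negative but for 15 the KO levels were all over the WT levels (beside 6.03% of all RNAs). Copies related to U6 leaned lower (36 of 49 negative, median -0.40), and for 15 of them the KO levels were all under the WT levels (beside 3.91%), although none had an unadjusted p under 0.05. The U1-related medians turned sign without WT replicate 1 (0.18) and under library size alone (0.18).

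MicroRNAs are cut from hairpins and guide Argonaute proteins to matching messages through bases 2 to 8, the seed. They were a minor class here, none was called by edgeR or DESeq2, and edgeR's unadjusted p was under 0.05 for 3 lower and 6 higher of the 277 tested, beside 2.82% and 6.48% of all RNAs. Their median of 0.12 ranged from -0.14 to 0.39 when libraries were left out in turn. The let-7 family, regulators of growth and differentiation, leaned higher: all 12 tested were positive, with a median of 0.57. Mirlet7g had 24.6, 22.5 and 9.18 CPM in WT and 45.9, 49.2 and 33.9 CPM in KO, without overlap (1.19 ± 0.42, adjusted p 0.297 in edgeR). Mir98, with the same seed, had 1.84, 1.41 and 0.850 CPM in WT and 2.60, 3.61 and 3.83 CPM in KO (1.24 ± 0.46), and the unrelated Mir574 had 1.29, 1.14 and 0.340 CPM and 1.83, 3.35 and 3.83 CPM (1.60 ± 0.59). Counts for a hairpin do not say which arm the reads came from. The most counted family members, Mirlet7c-1 and Mirlet7c-2, overlapped (0.28 each). Both arms are shown for Mirlet7g, Mir98 and Mir574, which had the smallest p of those higher, and for the abundant Mir125b-1 (0.60 ± 0.39); sequences are from RefSeq (GRCm38.p6), which gave a mature sequence for 182 of the 277, with the seed in capitals.
mmu-let-7g-5p: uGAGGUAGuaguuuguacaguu
mmu-let-7g-3p: aCUGUACAggccacugccuugc
mmu-miR-98-5p: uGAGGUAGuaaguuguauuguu
mmu-miR-98-3p: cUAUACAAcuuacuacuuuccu
mmu-miR-574-5p: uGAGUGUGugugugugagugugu
mmu-miR-574-3p: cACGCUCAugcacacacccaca
mmu-miR-125b-5p: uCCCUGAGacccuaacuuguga
mmu-miR-125b-1-3p: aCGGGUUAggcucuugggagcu

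The 5p arms of let-7g and miR-98 share the seed GAGGUAG, and miR-574 and miR-125b have seeds of their own. The class of microRNAs follows the annotation. The 3 of this class that were lower at an unadjusted p under 0.05 were n-TStga1 (-1.64 ± 0.53), Gm24105 (-0.91 ± 0.37) and n-TSaga9 (-2.05 ± 0.90, with 7 counts or fewer in each library). None of the 3 carries a microRNA (Mir) symbol, so no RNA named as a microRNA was lower at that p. The miR-30 family leaned higher (5 of 6 positive, median 0.38), and for Mir30c-2, at 40.0, 45.9 and 28.6 CPM in WT and 50.1, 61.7 and 81.4 CPM in KO, the genotypes did not overlap (0.75 ± 0.38). The miR-10, miR-99/100 and miR-125 family had a median of 0.19 (5 of 8 positive).

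MicroRNAs that mark other cells were looked at as lists. No member of any of the 7 lists was called. The epithelial list (miR-200 family, miR-205 and miR-204) had 7 of 7 positive, a median of 0.47 and summed levels of 91.1 to 152 CPM in WT and 93.8 to 218 CPM in KO. The muscle list (6 of 7 tested) summed to 152 to 339 CPM in WT and 156 to 479 CPM in KO (3 of 6 positive), and KO replicate 3 was the highest library for both lists. The red blood cell list (2 of 3 tested, both negative, median -0.76) summed to 40.0 to 61.0 CPM in WT and 15.3 to 64.8 CPM in KO.

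The X-linked spermatogenic cluster (13 of 18 tested, 8 positive, median 0.05) summed to 20.1 to 46.5 CPM in WT and 14.6 to 53.5 CPM in KO, and the miR-34 and miR-449 family, also of germ cells, to 16.5 to 34.2 and 15.6 to 24.8 CPM (4 of 4 negative, median -0.20). The leukocyte list (3 of 4 tested) summed to 22.3 to 43.1 CPM in WT and 18.4 to 41.8 CPM in KO (2 of 3 negative, median -0.27), and the endothelial Mir126a to 11.1 to 31.6 and 19.1 to 36.8 CPM (0.44). The part of such RNA in the differences above was not tested.

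The piRNA loci held 0.109% ± 0.0427 of counts in WT and 0.17% ± 0.0607 in KO (SD, n = 3 each), with KO levels all over WT levels for 43 and all under for 3 of the 352 tested, beside 6.03% and 3.91% of all RNAs. The Arhgap20 locus pi-Arhgap20.1 had 1.10, 1.94 and 1.02 CPM in WT and 11.6, 7.35 and 2.50 CPM in KO (2.38 ± 0.53, adjusted p 0.173 in edgeR and 0.0105 in DESeq2). The overlapping pi-Arhgap20.2 shares its reads (2.29 ± 0.53). The class median of 0.39 was -0.03 when KO replicate 1 was left out. The snoRNAs, guides of rRNA modification, were near 0 for both the C/D box (30 tested, median -0.01) and the H/ACA box type (8 tested, 0.28).

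**Figure D5:**
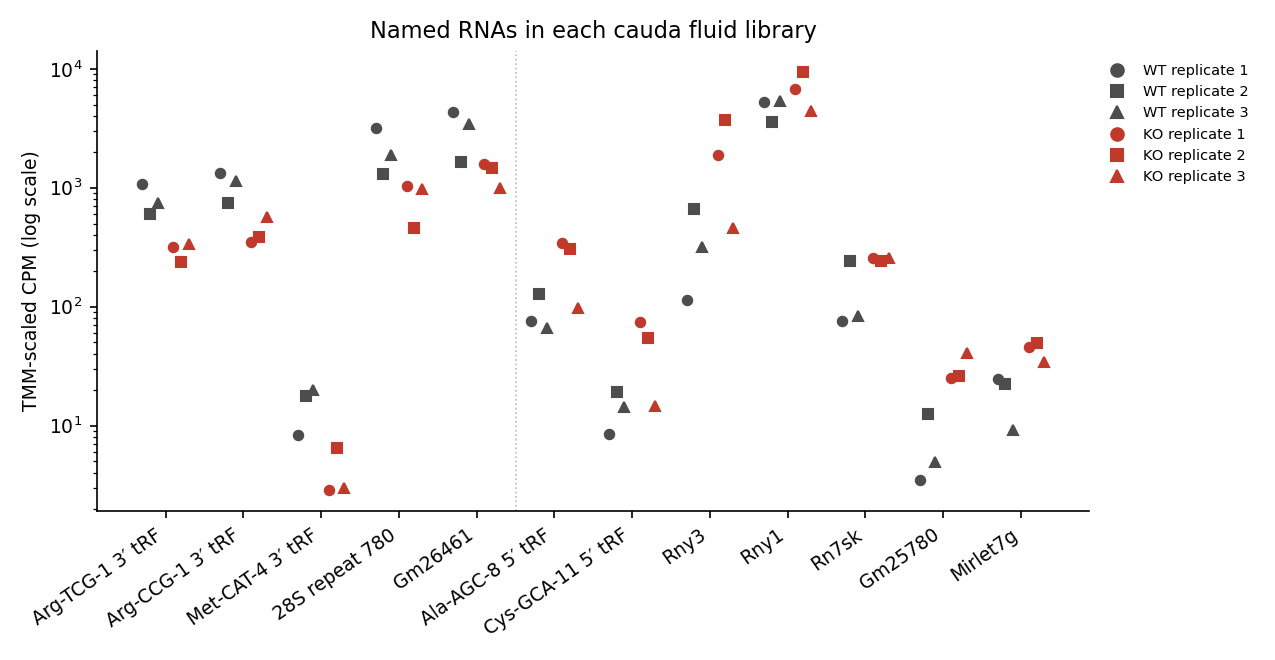
Level (TMM-scaled CPM, log axis) of 12 named RNAs in each of the 3 WT (grey) and 3 KO (red) cauda fluid libraries, with those of negative log2 fold change left of the dotted line. The tRF_3 of tRNA-Arg-TCG-1 and Gm26461 are lower in every KO library, and Rny3 is high in KO replicates 1 and 2 but at 458 CPM in KO replicate 3.

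The difference between KO and WT in cauda fluid was then set against that in corpus fluid, the segment just upstream, in 1 model with an interaction term. The corpus comparison had called 126 RNAs lower and 273 higher, from KO libraries of 1948718 to 3373869 counts. The KO effect was lower in cauda than in corpus for 91 RNAs (4.5%) and higher for 58 (2.87%). Most of the higher were tRNA fragments, 29 tRF_other and 21 tRF_5. The lower comprised 40 piRNA loci, 34 snRNAs, 11 microRNAs, 4 tRNA loci and 2 others. No RNA was called on this test without WT replicate 3, without KO replicate 2, or with scaling by library size alone. Without WT replicate 2 the counts were 38 and 89, without KO replicate 3 they were 83 and 109, and without KO replicate 1 they were 68 and 20.

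The alanine tRF_5 are an example: the log2 fold change of tRNA-Ala-AGC-8 was 1.46 in cauda and -1.11 in corpus fluid (difference 2.57 ± 0.60, adjusted p 0.0196 in edgeR). Summed by anticodon, the KO effect was higher in cauda for 18 of 51 tRF_other and 3 of 49 tRF_5 and for none of 49 tRF_3 (beside 2.87% of all RNAs tested singly). This contrast of sums was not repeated with libraries left out or under other scalings. The calls for single RNAs went to 0 under some of those settings, as given above. The tRF_other of Gln-TTG, for example, had 3083 ± 397 CPM in WT and 3125 ± 761 CPM in KO cauda fluid (SD, n = 3 each), a log2 fold change of 0.02 against -2.17 in corpus fluid. The tRF_3 leaned lower in both segments (median over RNAs -0.50 and -0.48). The microRNAs had a median of 0.12 in cauda and 1.05 in corpus fluid. Some RNAs that leaned higher in cauda were called higher in corpus fluid by edgeR, unlike the alanine tRF_5. Among them were Mirlet7g (log2 fold change 1.87 in corpus, edgeR adjusted p 0.00388), Rny1 (2.05, 0.00235), Rny3 (2.04, 0.0455) and Rn7sk (1.48, 0.0201). For these RNAs the KO effect was not called different between the segments.

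Against the libraries titled caput fluid, whose section label reads cauda, no RNA was called by edgeR (0 of 2023, 0%; smallest adjusted p 0.0635), while its unadjusted p was below 0.05 for 3.91% of RNAs on the lower and 7.02% on the higher side, and DESeq2 called 7 lower and 16 higher. In cauda tissue and cauda sperm of the same genotypes, analysed in their own tables and by ARM-seq in tissue, the median log2 fold changes were -0.52 and -0.87 for tRF_5, -0.44 and -0.42 for tRF_3 and -0.74 and -0.62 for tRF_other. The corresponding medians in cauda fluid were -0.02, -0.50 and 0.39. All 210 tRF_other tested in tissue and 171 of 196 in sperm were negative, against 57 of 198 in fluid. The difference between these materials was not tested, since the tables were normalised apart.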

How the data were processed

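Small RNA of 18 epididymal fluid libraries was taken from 1 table of whole-number read counts deposited by the authors, who trimmed reads with cutadapt (molecular tag included) and counted them with a modified tRAX, which maps with bowtie2 to mm10 (GRCm38) joined with mature tRNA and rRNA sequences and keeps all equally good mappings. UMI-tools is also named in the submitters' processing notes. Whether duplicate reads were removed is not given in the sources used here. The deposited counts are not normalised. Libraries were grouped by title and genotype, since the section label reads cauda for the fluid titled caput too. The tissue and sperm tables, also counts, were used only for class medians.

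Counts were tested with edgeR 4.0.16 (R 4.3.3) by quasi-likelihood in 1 model of all 18 fluid libraries, after filterByExpr (minimum count 10, total 15) and TMM scaling, with Benjamini-Hochberg adjustment over 2023 RNAs. The biological coefficient of variation was 0.425. DESeq2 1.42.0 was an alternative, as were other scalings, no filter, the 6 libraries alone, 1 feature for each anticodon and rRNA type, a replicate block and leaving out each library. The tests were also run on simulated counts, drawn independently for each RNA and library. Those counts held no shared reads and no library made to resemble the other genotype. They therefore cannot show how such features affect the calls. Class shares were compared by exact permutation.

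RNAs were named as the 3 lower and 3 higher with the smallest p in each of 5 groups, every rRNA sequence and RNA polymerase III RNA, the 2 most abundant members of each list, and 9 anticodons. The members and lists were chosen with earlier results of these data known. RNAs related in sequence were found by local alignment (biotite 1.4.0). Same-numbered WT and KO libraries did not deviate together in every pair, so they were not treated as pairs. In each library, 1 count was worth 0.0703 to 0.17 CPM.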

Additional observations from a re-analysis of the deposited data

Results flagged for a closer look

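The difference between KO and WT differed between cauda and corpus fluid for 91 RNAs that were lower and 58 that were higher in cauda, by the edgeR interaction test at an adjusted p under 0.05. Of the RNAs named above, 8 were among them, each given here as the log2 fold change in cauda minus that in corpus fluid. The tRF_5 of tRNA-Cys-GCA-11 gave 2.32, that of tRNA-Ala-AGC-8 2.57 and that of tRNA-Ala-CGC-2 2.52. The rRNA repeat copy rmsk_18S_1047 gave 3.74, and the piRNA loci pi-Arhgap20.1 and pi-Arhgap20.2 gave 2.64 and 2.59 from shared reads. The locus of tRNA-Glu-CTC-1-6 gave -2.35. The locus of tRNA-Phe-GAA-1-1 gave 5.73, a value that depends on the prior count because no WT cauda library had a read there. As stated above, the counts of 91 and 58 both went to 0 without WT replicate 3, without KO replicate 2 and with scaling by library size alone.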

How the results depend on the processing

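A single count was worth at most 0.17 CPM in these libraries, which is the smallest step in level at this depth. Far larger differences could go uncalled, since the spread between libraries was wide (biological coefficient of variation 0.425). Rny3, for example, was not called by edgeR at means of 363 CPM in WT and 2016 CPM in KO. The count of edgeR calls in cauda fluid was 0 lower and 0 higher under each other scaling, with the 6 libraries alone and with 1 feature for each anticodon and rRNA type. It was 0 and 1 without the filter, 10 and 32 with DESeq2, and 0 to 19 and 0 to 35 when libraries were left out in turn. With DESeq2 and without KO replicate 3, an alternative chosen after seeing the data, it was 69 and 83. Against caput fluid DESeq2 gave 7 lower and 16 higher, and leaving libraries out gave 0 to 7 and 0 to 14. Against corpus fluid, library size alone gave 0 and 0, and leaving libraries out gave 0 to 120 lower and 0 to 109 higher. Sums called higher numbered 0 to 5. Across the alternatives, 839 values for single RNAs, sums or sequence-related groups and 344 for classes, shares and counts of calls were scored unchanged. For single RNAs and sums this means the same sign and side of the threshold, and for shares the same sign. Medians were scored by the spread between libraries and counts by 1.5 times, not by sign. Of single RNAs and sums, 48 newly passed the threshold and 56 turned sign, as did 15 values for shares. Medians of sequence-related groups moved beyond their limit in 14 cases, and class medians or counts in 34. Medians that crossed 0 are therefore not among the values that turned sign. The cause of the changes was not tested. Sign changes included the following, where moves that kept their sign are marked as such.

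Library size alone moved the median of all RNAs from 0.09 to 0.34 and that of rRNA sequences from -0.42 to -0.068, without a change of sign. It turned the tRF_5 sums to 0.133 for Gln-TTG, 0.0934 for Glu-TTC and 0.0494 for Glu-CTC, and the tRF_3 sum of His-GTG to 0.138. The log2 fold changes of both 28S sequences were -0.0354 and -0.0581 with the size factors of DESeq2, -0.0336 and -0.0563 in DESeq2 itself, -0.11 and -0.136 with TMM from other RNAs, and -0.0618 and -0.084 with 1 feature per type, and the last pair of settings gave -0.0324 and -0.0201 for the mitochondrial large rRNA. With 1 feature per type the median of 18S repeats was -0.46 and the difference in the share of 28S repeats 0.03003 percentage points. The tRF_other sums of Val-CAC, Val-AAC and Gln-TTG were -0.0494, -0.0651 and -0.237 in DESeq2 and -0.174, -0.172 and -0.393 from the most counted isodecoder.

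Leaving out each library in turn gave medians of -0.0569 to 0.419 for all RNAs, -1.75 to 1.53 for full-length tRNAs, -0.38 to 0.267 for tRF_5, -0.136 to 0.393 for microRNAs, -0.239 to 0.274 for 5S repeats, -0.36 to 0.00104 for snRNAs, -0.0319 to 0.684 for piRNA loci, -0.41 to 0.352 for 28S repeats, -0.103 to 0.486 for snoRNAs and -1.07 to 0.0139 for tRNA loci. The 28S sequences ranged from -0.0846 to 0.196 and from -0.0531 to 0.141, and the mitochondrial large rRNA from -0.267 to 0.333. Sums for tRF_5 ranged from -0.514 to 0.395 for Gln-TTG, -0.354 to 0.0205 for Glu-TTC and -0.989 to 0.332 for Leu-CAA. Those for tRF_3 ranged from -0.626 to 0.176 for Gln-TTG, -0.904 to 0.185 for Gly-CCC, -0.57 to 0.257 for His-GTG, -1.42 to 0.0801 for Val-AAC and -1.41 to 0.0754 for Val-CAC. Those for tRF_other ranged from -0.287 to 0.208 for Gln-TTG, -0.0801 to 0.851 for Glu-TTC, -0.139 to 1.14 for Gly-GCC, -0.071 to 0.81 for His-GTG, -0.336 to 0.349 for Val-AAC and -0.271 to 0.49 for Val-CAC. Differences in share, in percentage points, ranged from -0.0886 to 0.0355 for 18S repeats, -0.201 to 0.0231 for 28S repeats, -0.822 to 1.09 for 5S repeats, -0.319 to 2.86 for rsRNAs, -0.779 to 1.42 for snRNAs, -0.295 to 2.09 for tRF_5, -0.125 to 1.51 for tRF_other and -5.34 to 0.704 for all tRFs.

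Same-numbered WT and KO libraries had deviations correlated at 0.161, -0.0845 and 0.309, and KO replicate 2 correlated best with WT replicate 1 (0.194). With a term for the replicate number (replicate block), 0 RNAs were called in either direction, and the tRF_5 and tRF_other sums of Gln-TTG turned to 0.0473 and -0.0043 and the medians of full-length tRNAs and tRF_5 to 0.19 and 0.08. The log2 fold change of Mir465 went from 0.0396 to -0.073. No other named RNA or sum changed direction under it.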
